A study of Mus musculus with 6 samples.

Results

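The genes described here are 45 genes of mitosis and the G2/M phase of the cell cycle, a list chosen by function and found by matching symbols to the mouse Ensembl identifiers of the deposited count table, in which all 45 were present among 52636 genes. All 45 passed the filter on low counts that left 15197 genes for testing. They were measured by RNA sequencing in mouse lung cells labelled as innate lymphoid cells (ILCs), lymphocytes that lack rearranged antigen receptors. The libraries also held RNA of T cell, B cell and fibroblast markers, chiefly in the KLRG1-negative sort, as given below. The KLRG1-positive group (3 libraries, called KLRG1high in the sort) held Lin-, CD90-positive, KLRG1-positive ILC2, and the KLRG1-negative group (3 libraries) held Lin-, CD90-positive cells without KLRG1, an inhibitory lectin-like receptor of activated lymphocytes. Both groups came from wild-type C57BL/6 mice with a GFP reporter at the Il4 gene (IL-4-4get). All mice were given 500 ng of interleukin-33, an alarmin that makes group 2 ILCs divide and secrete type 2 cytokines, into the peritoneum for 4 days, with tissue taken on day 5. No untreated group was analysed here. The labels state a sort purity above 90% and do not tell whether libraries of a sort stem from different animals, so the p-values describe spread among these libraries, which may be technical.

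A cell that has copied its DNA enters mitosis when cyclin-dependent kinase 1, bound to a B-type cyclin, is switched on by Cdc25 phosphatases. Chromosomes then attach to the spindle through kinetochores, a checkpoint holds the cell until every chromosome is attached, the anaphase-promoting complex destroys cyclin B and securin, and the cell divides. Most of these genes are transcribed mainly late in the cycle, through the B-Myb, MuvB and FoxM1 factors, so in bulk RNA their levels are widely used as a measure of how many cells are dividing. In bulk libraries a lower share of dividing cells and less of these RNAs per dividing cell cannot be told apart.

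Levels are in CPM, gene counts scaled to a common library total after TMM normalization, and values of 3 libraries stand in the order of library numbers 1, 2 and 3. Libraries held 17323004 to 23946073 counts assigned to genes, and a member held between 5 and 10704 counts in a library, with a median of 1055. Exons of 13 of the 45 members overlap another gene, and reads were counted without strand, so these 13 are less certain. They are Ccna2, Plk1, Cdc25b, Foxm1, Top2a, Cdca8, Kif4, Nusap1, Stmn1, Cdc20, Ube2c, Kif20a and Prc1. Klrg1, the receptor that separated the sorts, ranged over 1327 to 1786 CPM in KLRG1-positive libraries, against 13.1 to 193 CPM in KLRG1-negative ones. All 15 markers on a list of ILC2 genes were detected in each group, with summed levels of 7350 to 8811 CPM among KLRG1-positive libraries, against 1800 to 4598 CPM among KLRG1-negative ones.

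Mitotic genes were abundant in KLRG1-positive libraries 1 and 3 and scarce in KLRG1-positive library 2. The 45 members summed to 5956, 1795 and 6033 CPM in KLRG1-positive libraries, against 2108, 1528 and 2939 CPM in the KLRG1-negative libraries. KLRG1-positive libraries 1 and 3 thus lay above all 3 KLRG1-negative libraries, while KLRG1-positive library 2 lay between KLRG1-negative libraries 2 and 1. The group means were 4595 ± 2425 CPM for the KLRG1-positive sort and 2192 ± 709 CPM for the KLRG1-negative sort (SD, n = 3 each), a difference no larger than the spread among the KLRG1-positive libraries. Members made up 0.611%, 0.177% and 0.580% of the counts of the KLRG1-positive libraries and 0.212%, 0.162% and 0.282% of those of the KLRG1-negative libraries.

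**Figure D1:**
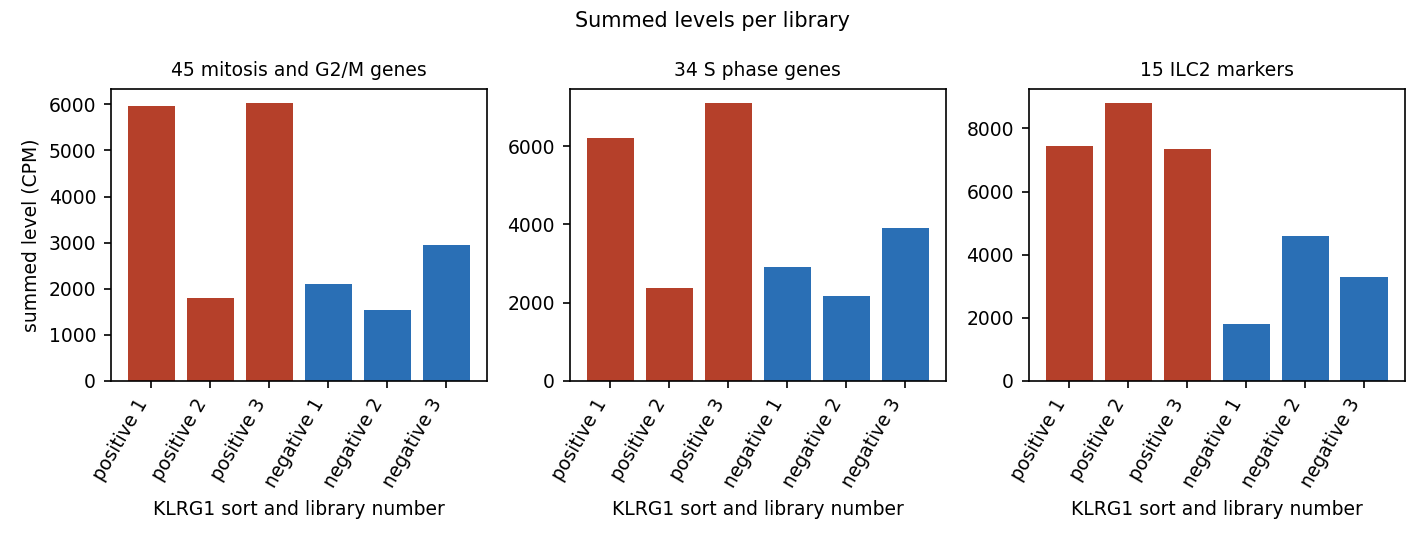
Summed level in CPM (vertical axes, starting at 0) of 45 mitosis and G2/M genes, 34 S phase genes and 15 ILC2 markers in each of the 6 libraries; red bars are KLRG1-positive and blue bars KLRG1-negative libraries. The mitotic sum is 5956 and 6033 CPM in KLRG1-positive libraries 1 and 3 and 1795 CPM in KLRG1-positive library 2, whose ILC2 marker sum, 8811 CPM, is the highest of the 6.

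Gene by gene, all 45 members had a positive log2 fold change of KLRG1-positive over KLRG1-negative cells, as had 46.5% of all tested genes, and none of the 45 passed the test. The median log2 fold change was 1.08 over the members and -0.05 over all tested genes, and single members ranged from 0.04 to 2.05. The log2 fold change exceeded 1 in 26 members, against 6.23% of all tested genes. At an adjusted p under 0.05 the edgeR quasi-likelihood test called 0 members higher and 0 lower, while it called 0.125% of all tested genes higher and 1.21% lower; the smallest adjusted p of a member was 0.143, of Prc1. At an unadjusted p under 0.05, 5 members were higher (Prc1, Cdc25b, Bub1b, Ccnb1 and Ccnb2), with a background of 4.19% of tested genes, and 0 were lower, with a background of 11.5%. The groups did not overlap, with all KLRG1-positive values on top, in 2 of the 45 members, Cdc25b and Prc1, against 9.46% of all tested genes. The standard error of a member's log2 fold change was 0.67 at the median, against 0.51 over all tested genes.

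**Figure D2:**
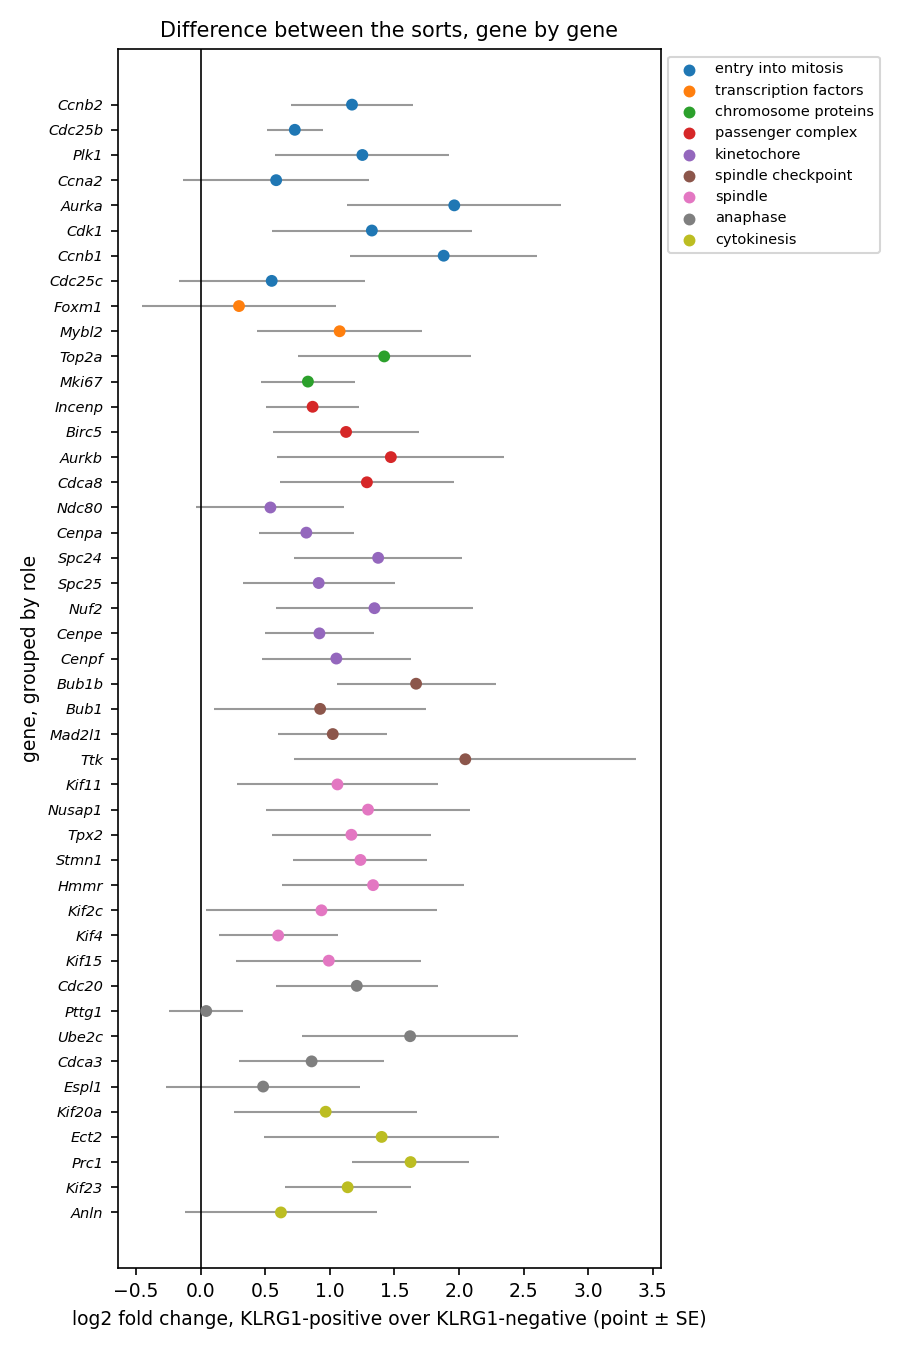
Log2 fold change of KLRG1-positive over KLRG1-negative cells for each of the 45 genes (horizontal axis), with bars of 1 standard error from the edgeR test of 3 libraries per group, coloured by role. All points lie right of 0, from Pttg1 at 0.04 to Ttk at 2.05, and none passed at an adjusted p under 0.05.

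KLRG1-positive library 2 stood apart from the other 2 of its sort. It was the lowest KLRG1-positive library for 43 of the 45 members, against 37.2% of all tested genes. Its level was 0.219 of the mean of KLRG1-positive libraries 1 and 3 at the median of the members, while the median over all tested genes was 0.971. The ratio ran from 0.116 in Aurka to 1.09 in Pttg1, and it was under 0.5 in 42 members and in 13.1% of all tested genes. Within the KLRG1-negative range it held 32 members, below that range 11 and above it 2, with no share over all tested genes taken. KLRG1-positive libraries 1 and 3, by contrast, agreed within 1.5-fold of each other for 40 members, against 57.2% of all tested genes. Both of them lay above all KLRG1-negative libraries for 40 of the 45 members, against 16.8% of all tested genes, a count chosen after the values were seen.

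Left out of the test, KLRG1-positive library 2 took the median log2 fold change of the members to 1.47 and the number at an unadjusted p under 0.05 to 33 of 45, against 4.20% of the genes tested in that fit; still 0 members passed the adjusted threshold in edgeR (smallest adjusted p = 0.147). DESeq2 without the same library (chosen after seeing the data) called 25 members higher, against 1.07% of its genes, and DESeq2 on all 6 libraries called 1, Prc1 (adjusted p = 0.0175), against 1.31%. The DESeq2 shares here and below are over 26283 to 26868 genes, without the low count filter of the main edgeR fit. Genes without an adjusted p counted as not called, so these shares and those of edgeR are not alike. Over all alternatives the adjusted p of Prc1 ran between 0.0624 and 0.586 in edgeR and between 7.77e-09 and 0.0175 in DESeq2. Whether members count as higher therefore depended on this library and on the tool.

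Haemoglobin RNA was high in the same library. Hba-a1, a haemoglobin alpha gene, had 29.6, 1995 and 17.98 CPM across KLRG1-positive libraries, against 10.6, 8.59 and 5.62 CPM across KLRG1-negative ones. Hbb-bs, a haemoglobin beta gene, had 3.32, 983 and 0.799 CPM across KLRG1-positive libraries, against 7.12, 1.34 and 1.54 CPM across KLRG1-negative ones. Both were high in KLRG1-positive library 2 alone. Haemoglobin genes have close copies, and multi-mapping reads were left out, so these values are uncertain. Other RNA was high in KLRG1-positive library 1. The 8 epithelial markers summed to 525, 14.5 and 14.96 CPM across KLRG1-positive libraries, against 593, 112 and 113 CPM across KLRG1-negative ones. The ILC1 and NK cell markers given below summed to 538, 129 and 207 CPM across KLRG1-positive libraries. Both sums were the highest of the KLRG1-positive sort in library 1. The part of haemoglobin, epithelial or ILC1 and NK cell RNA in the mitotic result was not tested. The ILC2 marker sum of KLRG1-positive library 2 was the highest of the 6 at 8811 CPM. Its T cell marker sum, 652 CPM, lay close to the 625 and 563 CPM of KLRG1-positive libraries 1 and 3. Single T cell markers were less alike. Across KLRG1-positive libraries, Cd3g had 148, 313 and 249 CPM and Lat 162, 252 and 176 CPM. Cd3e had 39.0, 8.81 and 12.5 CPM there, and Cd8b1 72.9, 2.83 and 17.3 CPM, both highest in library 1. The part of T cell RNA in the mitotic result was not tested.

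Library number 2 was also the low one in the KLRG1-negative group, where it was the lowest for 34 of the 45 members, against 36.1% of all tested genes. KLRG1-negative library 3 was the highest for 38, a count for which no share over all tested genes was taken. Within the numbered pairs, the KLRG1-positive library lay above the KLRG1-negative library for 44 members in pair 1, 28 in pair 2 and 44 in pair 3, against 45.2%, 48.7% and 50.3% of all tested genes. The median log2 ratio of the members was 1.60 in pair 1, 0.11 in pair 2 and 1.06 in pair 3, and 27 members were higher in all 3 pairs, against 21.7% of all tested genes. A fit with the replicate number as a block assumes that equal numbers pair the libraries. In it, 19 members had an unadjusted p under 0.05, against 6.74% of all tested genes. Of the members, 0 passed the adjusted threshold in edgeR, the smallest adjusted p being 0.0624 for Prc1. DESeq2 with the block, added after seeing the data, called 13 members higher, against 2.21% of its genes.

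The share of all genes called higher was small in the edgeR alternatives, in each of which 0 members passed: 0.118% with RLE factors, 0.0855% with library size only, 0.138% without the count filter, 0.132% without robust dispersion, 0.0187% and 0.0305% without KLRG1-negative or KLRG1-positive library 1, and 0.0193% without both. At an unadjusted p under 0.05 the shares were 4.32% with RLE factors, 3.84% with library size only, 4.38% without the filter, 4.25% without robust dispersion, 3.57% in DESeq2 and 5.05% in DESeq2 with the block. They were 3.04% and 3.48% without KLRG1-positive library 1 or 3, 5.13%, 6.63% and 4.31% without KLRG1-negative library 1, 2 or 3, and 3.87%, 5.6% and 2.6% without both libraries numbered 1, 2 or 3.

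**Figure D3:**
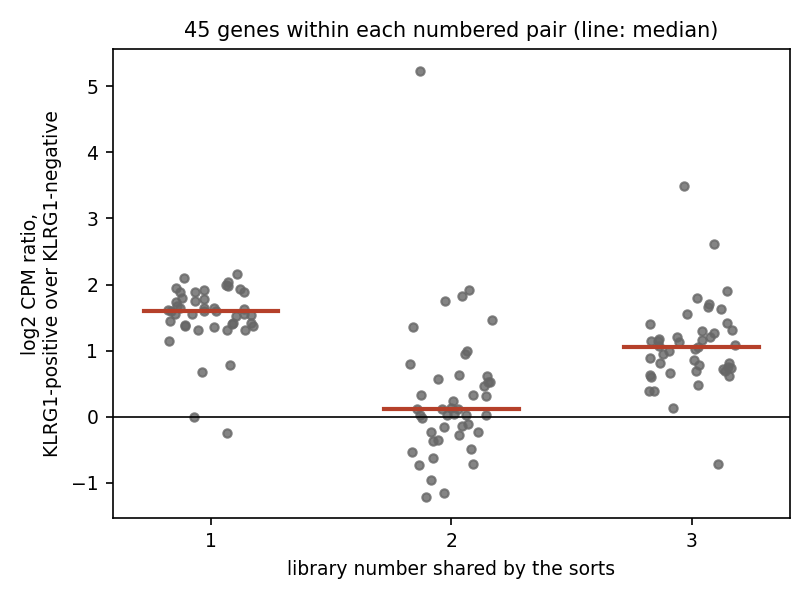
Log2 ratio of CPM in the KLRG1-positive over the KLRG1-negative library (vertical axis) for 45 genes within each library number (horizontal axis); each point is a gene and the red line the median. Medians are 1.60, 0.11 and 1.06, and the highest point in pair 2 is Ttk at 5.23, whose KLRG1-negative level there was 0.197 CPM.

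Other cell types were unequal between the sorts. All 12 T cell markers, 10 B cell and plasma cell markers and 8 fibroblast markers listed had counts in both groups. Some were almost absent from the KLRG1-positive sort, such as Cd4 at no more than 0.0534 CPM and Lum at no more than 0.0444 CPM. T cell markers summed to 563 to 652 CPM among KLRG1-positive libraries, against 1904 to 6928 CPM among KLRG1-negative ones. B and plasma cell markers summed to 4491, 2674 and 9096 CPM in KLRG1-positive libraries, against 28998, 7767 and 29963 CPM in KLRG1-negative ones. Within each sort that sum ranked the libraries as the mitotic sum did, which the T cell and fibroblast sums did not. Fibroblast markers summed to 33.8 to 146 CPM in the KLRG1-positive sort, against 4766 to 11690 CPM in the KLRG1-negative sort. The 10 ILC1 and NK cell markers summed to 129 to 538 CPM in the KLRG1-positive sort, against 626 to 1834 CPM in the KLRG1-negative sort, and the 6 ILC3 markers to 47.5 to 99.7 CPM, against 45.5 to 108 CPM. The mitotic sum divided by the ILC2 marker sum was 0.801, 0.204 and 0.821 in the KLRG1-positive libraries, against 1.17, 0.332 and 0.892 in the KLRG1-negative libraries. In that ratio the groups overlapped, and the libraries numbered 2 were again the low ones. Within each of the 3 numbered pairs the KLRG1-positive library had the lower ratio, opposite to the direction of the mitotic sum itself, and no test was made of it. Arg1 had the highest mean of the 15 ILC2 markers in each sort. It stood at 1963, 2577 and 2542 CPM in KLRG1-positive libraries, against 110, 1069 and 847 CPM in KLRG1-negative ones. The direction of the ratio within a pair can therefore depend on the markers summed. Which cells carried the mitotic RNA of the KLRG1-negative libraries cannot be told from these data, and the part of other cell types in the result was not tested.

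Promoters of genes switched on in G2 and mitosis are known for 2 short elements, the CCAAT box, bound by NF-Y, and the cell cycle genes homology region (CHR), bound by MuvB complexes. Promoter windows from RefSeq (GRCm38.p6, 250 bases before to 50 after the start site) matched 36 of the 45 members, of which 27 started within 50 bases of the gene's 5' end in the deposited table. No window was matched for Ccna2, Cdc25c, Foxm1, Aurkb, Incenp, Spc24, Tpx2, Stmn1 and Kif20a. CCAAT, or ATTGG on the other strand, was found in 26 of the 36 windows (72.2%), against 38.6% of 10510 windows of tested genes. TTTGAA, or TTCAAA on the other strand, was found in 26 of 36 (72.2%), against 12.3%, and both elements in 22 (61.1%), against 4.95%. In the 29 matched windows of the S phase list the shares were 69.0%, 13.8% and 10.3%. The motifs were counted separately, neighbouring matches may share a base, and a match is a description of the sequence, not a binding site. Below are the 250 bases before the start site, 5' to 3', for Ccnb2, the member with the highest level per length, for Top2a and Cdc20, which hold both elements there, and for Prc1 and Cdc25b, the members whose groups did not overlap; capitals mark both motifs.
Ccnb2, chr9:70421555-70421804, minus strand: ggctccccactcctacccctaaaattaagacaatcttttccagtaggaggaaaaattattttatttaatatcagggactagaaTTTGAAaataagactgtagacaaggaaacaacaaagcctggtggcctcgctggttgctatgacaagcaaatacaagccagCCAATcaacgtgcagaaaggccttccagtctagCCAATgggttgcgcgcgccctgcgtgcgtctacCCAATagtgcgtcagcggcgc
Top2a, chr11:99024190-99024439, minus strand: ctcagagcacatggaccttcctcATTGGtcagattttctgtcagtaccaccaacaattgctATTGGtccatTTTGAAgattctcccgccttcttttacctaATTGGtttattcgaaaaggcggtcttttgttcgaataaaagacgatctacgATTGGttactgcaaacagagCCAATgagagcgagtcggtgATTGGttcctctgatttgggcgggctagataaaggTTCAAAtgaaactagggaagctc
Cdc20, chr4:118437344-118437593, minus strand: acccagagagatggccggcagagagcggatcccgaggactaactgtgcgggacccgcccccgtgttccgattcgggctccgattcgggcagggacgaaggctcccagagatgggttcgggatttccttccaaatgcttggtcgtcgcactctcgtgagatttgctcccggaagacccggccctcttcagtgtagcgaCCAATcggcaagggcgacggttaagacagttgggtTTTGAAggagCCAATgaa
Prc1, chr7:80294201-80294450, plus strand: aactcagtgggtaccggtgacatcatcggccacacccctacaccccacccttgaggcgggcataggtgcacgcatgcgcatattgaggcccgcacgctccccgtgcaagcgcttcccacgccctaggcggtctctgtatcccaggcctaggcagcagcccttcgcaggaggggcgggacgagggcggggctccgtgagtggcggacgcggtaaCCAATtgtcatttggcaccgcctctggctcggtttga
Cdc25b, chr2:131186698-131186947, plus strand: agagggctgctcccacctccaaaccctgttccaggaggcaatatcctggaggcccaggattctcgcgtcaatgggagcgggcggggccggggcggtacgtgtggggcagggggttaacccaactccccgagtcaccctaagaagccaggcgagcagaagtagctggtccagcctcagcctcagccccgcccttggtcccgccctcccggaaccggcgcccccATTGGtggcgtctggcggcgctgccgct
Top2a held 6 CCAAT matches and 2 CHR matches in this stretch, Cdc20 2 and 1, and Ccnb2 3 and 1. Prc1 and Cdc25b each held 1 CCAAT match. The TTTGAA of Prc1 crossed the start site and so lacks its last letter above, and Cdc25b had no TTTGAA or TTCAAA in its window. Only these sequences were searched as the CHR, so variants of it were not counted.

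Genes of entry into mitosis included the members with the highest levels. Per kilobase of exon, Ccnb2 (cyclin B2) led all 45 with an average of 105 RPKM over the 6 libraries, and Cdc25b, a phosphatase that starts Cdk1 activation, was the next at 66.1 RPKM. Ccnb2 stood at 292, 91.5 and 285 CPM in KLRG1-positive libraries, against 77.5, 90.2 and 129 CPM in the KLRG1-negative libraries (log2 fold change 1.17 ± 0.47 SE, adjusted p = 0.304). The groups overlapped through KLRG1-positive library 2, which matched KLRG1-negative library 2. Ccnb2 has an annotated pseudogene, as have Ccnb1 and Kif4, and reads that fit more than 1 place were left out, so the levels of these genes may be understated. Cdc25b had the least spread of the role group, with 356, 239 and 327 CPM in KLRG1-positive libraries, against 206, 156 and 195 CPM in the KLRG1-negative libraries. Its groups did not overlap, and its log2 fold change of 0.73 ± 0.22 SE was the most precise of the 45 (adjusted p = 0.169). Ccnb1 (cyclin B1) stood at 61.9, 11.4 and 59.2 CPM in KLRG1-positive libraries, against 14.5, 5.72 and 15.8 CPM in KLRG1-negative libraries (1.88 ± 0.72 SE, adjusted p = 0.280). Aurka, the kinase that matures centrosomes, stood at 90.3, 10.9 and 98.2 CPM in KLRG1-positive libraries, against 24.4, 18.1 and 8.75 CPM in KLRG1-negative libraries (1.96 ± 0.83 SE, adjusted p = 0.330). In both of these genes KLRG1-positive libraries 1 and 3 were the high ones and library 2 lay among the KLRG1-negative libraries. Cdk1, the mitotic kinase itself, and Plk1, a kinase that promotes entry and spindle assembly, had log2 fold changes of 1.32 and 1.25. Ccna2 (cyclin A2) and Cdc25c had smaller ones, 0.58 and 0.55. Ccna2 was highest in the library numbered 3 of each sort, at 54.7, 35.6 and 214 CPM in KLRG1-positive libraries, against 54.6, 45.9 and 102 CPM in KLRG1-negative libraries, and 12.5% of its exon bases overlap Exosc9.

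Of the transcription factors of the G2/M program, Mybl2, which encodes B-Myb, stood at 27.1, 15.6 and 67.2 CPM in KLRG1-positive libraries, against 10.6, 14.2 and 27.4 CPM in the KLRG1-negative libraries (log2 fold change 1.08 ± 0.64 SE, adjusted p = 0.510). Foxm1 stood at 19.4, 20.9 and 73.2 CPM in KLRG1-positive libraries, against 12.1, 24.6 and 55.7 CPM in KLRG1-negative libraries (0.30 ± 0.75 SE, adjusted p = 0.918). Both were highest in the library numbered 3 of each sort, and Foxm1 KLRG1-positive library 1 lay within the KLRG1-negative range, unlike that library's level of most members. Of the 2 chromosome proteins, Mki67, which coats mitotic chromosomes and encodes the Ki-67 antigen, stood at 247, 119 and 280 CPM in KLRG1-positive libraries, against 99.6, 109 and 155 CPM in KLRG1-negative libraries (0.83 ± 0.36 SE, adjusted p = 0.351). Top2a, the topoisomerase that untangles sister chromatids, stood at 549, 138 and 475 CPM in KLRG1-positive libraries, against 175, 53.6 and 206 CPM in KLRG1-negative libraries (1.42 ± 0.67 SE, adjusted p = 0.388). In both genes KLRG1-positive libraries 1 and 3 were above every KLRG1-negative library and KLRG1-positive library 2 was not.

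**Figure D4:**
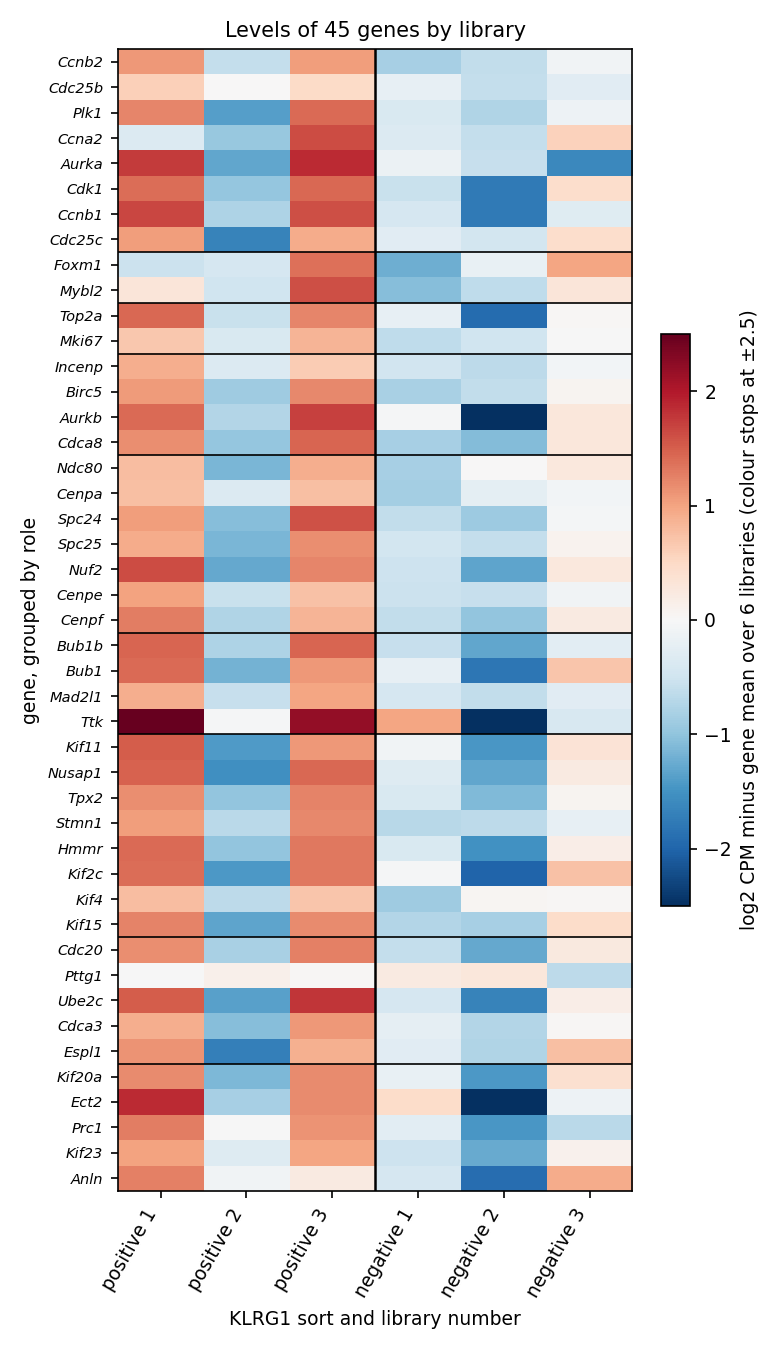
Log2 CPM of each of the 45 genes minus that gene's mean over the 6 libraries (colour, stopping at ±2.5), with genes in rows grouped by role and libraries in columns, KLRG1-positive left of KLRG1-negative. KLRG1-positive libraries 1 and 3 are red in nearly all rows, KLRG1-positive library 2 and KLRG1-negative library 2 are mostly blue, and Pttg1 varies little.

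The chromosomal passenger complex, which corrects faulty attachments and later acts in cytokinesis, has a kinase, Aurkb, a scaffold, Incenp, and 2 targeting subunits, Birc5 (survivin) and Cdca8 (borealin). Their log2 fold changes were 1.47, 0.87, 1.13 and 1.29. Incenp stood at 165, 70.2 and 137 CPM in KLRG1-positive libraries, against 63.7, 55.9 and 84.9 CPM in the KLRG1-negative libraries (adjusted p = 0.320). Birc5 stood at 160, 41.0 and 174 CPM in KLRG1-positive libraries, against 43.2, 49.4 and 79.4 CPM in KLRG1-negative libraries (adjusted p = 0.422). Birc5 in KLRG1-positive library 2 lay below all KLRG1-negative libraries, while Incenp there lay within their range. Aurkb was low in both libraries numbered 2, 28.7 CPM for the KLRG1-positive one, against 7.57 CPM for the KLRG1-negative one.

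Kinetochore members had log2 fold changes from 0.54 to 1.37, with a median of 0.92. Cenpa, the histone variant that marks centromeres, stood at 202, 94.0 and 202 CPM in KLRG1-positive libraries, against 66.6, 101 and 114 CPM in the KLRG1-negative libraries (0.82 ± 0.37 SE, adjusted p = 0.362). The Ndc80 complex, which binds spindle microtubules, has 4 subunits. Their log2 fold changes were 1.37 ± 0.65 SE in Spc24, 1.34 ± 0.77 in Nuf2, 0.91 ± 0.59 in Spc25 and 0.54 ± 0.57 in Ndc80. These errors overlap, and differences between the subunits were not tested. Ndc80 stood at 81.2, 21.4 and 88.7 CPM in KLRG1-positive libraries, against 26.6, 47.8 and 57.2 CPM in KLRG1-negative libraries (adjusted p = 0.761), so that KLRG1-positive library 2 was the lowest of all 6. Cenpe, a kinetochore motor, had a log2 fold change of 0.92 and Cenpf, a large kinetochore protein, 1.05.

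The spindle checkpoint members had the highest median log2 fold change of the role groups, 1.34. The entry and passenger groups each had a median of 1.21, and differences between role groups were not tested. Bub1b, which encodes the checkpoint protein BubR1, stood at 231, 49.2 and 230 CPM in KLRG1-positive libraries, against 56.1, 34.2 and 70.2 CPM in the KLRG1-negative libraries (1.67 ± 0.62 SE, adjusted p = 0.261). Bub1, its kinase relative, stood at 99.9, 16.4 and 78.7 CPM in KLRG1-positive libraries, against 32.4, 10.6 and 59.8 CPM in KLRG1-negative libraries (0.92 ± 0.82 SE, adjusted p = 0.697). In both genes KLRG1-positive library 2 was the lowest of its sort and KLRG1-negative library 2 the lowest of all. Ttk, the checkpoint kinase Mps1, had the largest log2 fold change of the 45 and the widest error, 2.05 ± 1.33 SE (adjusted p = 0.557), with 44.0, 7.42 and 34.8 CPM in KLRG1-positive libraries, against 14.96, 0.197 and 5.72 CPM in KLRG1-negative libraries. The KLRG1-negative value of 0.197 CPM rests on 5 counts. Mad2l1, the Mad2 inhibitor of the anaphase-promoting complex, had a log2 fold change of 1.02 ± 0.42 SE (adjusted p = 0.319).

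Spindle members had log2 fold changes from 0.60 in Kif4, a chromokinesin, to 1.33 in Hmmr, a spindle microtubule protein. In Kif4, 15.1% of exon bases overlap Pdzd11. Kif11, the kinesin that pushes spindle poles apart, stood at 257, 33.8 and 191 CPM in KLRG1-positive libraries, against 84.9, 33.0 and 113 CPM in the KLRG1-negative libraries (1.06 ± 0.78 SE, adjusted p = 0.619). Nusap1, a microtubule-bundling protein, stood at 186, 23.3 and 182 CPM in KLRG1-positive libraries, against 53.9, 27.2 and 78.6 CPM in KLRG1-negative libraries (1.29 ± 0.79 SE, adjusted p = 0.525). KLRG1-positive library 2 was at the level of the lowest KLRG1-negative library in Kif11 and under it in Nusap1. Tpx2, which activates Aurora A on the spindle, the microtubule destabilizer Stmn1, and the motors Kif15 and Kif2c had log2 fold changes of 1.17, 1.24, 0.99 and 0.93.

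Anaphase genes included the member that least followed the others. Cdc20, the activator of the anaphase-promoting complex, stood at 160, 41.0 and 173 CPM in KLRG1-positive libraries, against 47.7, 29.6 and 84.7 CPM in the KLRG1-negative libraries (1.21 ± 0.63 SE, adjusted p = 0.444). Its partner Ube2c, the ubiquitin-conjugating enzyme of that complex, had a log2 fold change of 1.62, though 22.8% of its exon bases overlap Tnnc2. Pttg1, which encodes securin, the inhibitor of separase, stood at 77.0, 85.2 and 79.2 CPM in KLRG1-positive libraries, against 91.3, 94.1 and 49.1 CPM in KLRG1-negative libraries (0.04 ± 0.29 SE, adjusted p = 0.975). KLRG1-positive library 2 was here the highest of its sort, the only such case among the 45, and pair 1 and pair 2 had ratios below 1. Espl1, separase itself, stood at 77.5, 10.9 and 65.9 CPM in KLRG1-positive libraries, against 29.2, 21.1 and 60.2 CPM in KLRG1-negative libraries (0.48 ± 0.75 SE, adjusted p = 0.852), with KLRG1-positive library 2 below all others. Cdca3, a trigger of mitotic entry that is degraded after mitosis, had a log2 fold change of 0.86.

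Cytokinesis members had log2 fold changes from 0.62 in Anln (anillin, a contractile ring scaffold) to 1.62 in Prc1, which bundles midzone microtubules. Prc1 stood at 159, 65.3 and 142 CPM in KLRG1-positive libraries, against 54.4, 23.7 and 40.8 CPM in the KLRG1-negative libraries (1.62 ± 0.45 SE, adjusted p = 0.143; ENSMUSG00000038943, GRCm38 chromosome 7, 80294450 to 80316259). The groups did not overlap, and the log2 ratio was 1.55, 1.46 and 1.80 in pairs 1, 2 and 3; 11.1% of its exon bases overlap Rccd1. Ect2, the exchange factor that activates RhoA at the division plane, stood at 132, 20.3 and 81.9 CPM in KLRG1-positive libraries, against 49.8, 6.03 and 33.0 CPM in KLRG1-negative libraries (1.40 ± 0.91 SE, adjusted p = 0.560). Kif20a, a midzone kinesin, stood at 116, 23.3 and 115 CPM in KLRG1-positive libraries, against 44.6, 18.6 and 66.6 CPM in KLRG1-negative libraries (0.97 ± 0.71 SE, adjusted p = 0.619), with 33.2% of its exon bases shared with Cdc23. In both, each library numbered 2 was the lowest of its sort. Kif23, of the centralspindlin complex, had a log2 fold change of 1.14, and Anln was unusual in that KLRG1-negative library 3, at 54.0 CPM, lay above KLRG1-positive libraries 2 and 3 at 26.7 and 32.8 CPM.

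Other genes of the cell cycle, from lists drawn up by function, were set beside the members. The background for every list below is the same. Over all tested genes, 46.5% had a positive log2 fold change. At an unadjusted p under 0.05 (edgeR), 4.19% were higher and 11.5% lower. At an adjusted p under 0.05 (edgeR), 0.125% were higher and 1.21% lower. Of 70 further G2/M genes, 65 had a positive log2 fold change (median 0.82), and 0 passed the adjusted threshold (5 higher and 0 lower at an unadjusted p under 0.05, edgeR). Cenpi, a centromere protein, and Cks1b, a Cdk1-binding subunit, had the smallest p-values among them, with log2 fold changes of 1.62 (adjusted p = 0.182) and 1.39 (adjusted p = 0.274). In KLRG1-positive library 2 these 70 genes stood at a median of 0.263 of the mean of KLRG1-positive libraries 1 and 3, a ratio near the 0.219 of the members. Core subunits and partners of the anaphase-promoting complex gave other values: 10 of 16 were positive, the median was 0.07, the ratio in KLRG1-positive library 2 was 0.878, and 0 passed (0 at an unadjusted p under 0.05, edgeR). Anapc4 and Anapc10 had the smallest p-values of that list (log2 fold changes 0.65 and 0.49, adjusted p = 0.351 and 0.516).

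Of 11 tested genes of the DREAM and MuvB complexes, 8 were positive with a median of 0.35, and 0 passed (1 higher and 0 lower at an unadjusted p under 0.05, edgeR); Rbl2, a pocket protein of DREAM, and Rbbp4, a MuvB subunit, had log2 fold changes of 0.75 (adjusted p = 0.213) and 0.58 (adjusted p = 0.371). Of 15 genes of G1 and the G1/S transition, 12 were positive with a median of 0.78 and 0 passed (2 higher and 1 lower at an unadjusted p under 0.05, edgeR); E2f7, a repressor of the E2F family, and Cdc25a, the G1/S phosphatase, had 1.56 (adjusted p = 0.155) and 1.37 (adjusted p = 0.186). Of 14 tested cell cycle inhibitors, 7 were positive and 7 negative with a median of -0.11, and 0 passed (0 at an unadjusted p under 0.05, edgeR); Gadd45a, a stress-induced growth arrest gene, had -1.53 (adjusted p = 0.326) and Rb1, the retinoblastoma protein, 0.91 (adjusted p = 0.576).

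S phase genes followed the mitotic genes library by library. The log2 fold change was positive for all 34 on the S phase list, with a median of 0.77, and 0 passed (6 higher and 0 lower at an unadjusted p under 0.05, edgeR); Tyms, thymidylate synthase, and Lig1, DNA ligase I, had 1.37 (adjusted p = 0.127) and 1.36 (adjusted p = 0.269). The S phase sum was 6207, 2362 and 7107 CPM in KLRG1-positive libraries, against 2899, 2155 and 3897 CPM in the KLRG1-negative libraries. The mitotic sum divided by the S phase sum was 0.960, 0.760 and 0.849 in KLRG1-positive libraries, against 0.727, 0.709 and 0.754 in KLRG1-negative libraries. That ratio was higher in each KLRG1-positive library than in any KLRG1-negative one, by a narrow margin in KLRG1-positive library 2, and no test was made of it because the list was chosen with results known.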

How the data were processed

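The authors deposited raw counts of reads per gene without normalization; per the file headers, featureCounts assigned reads to GRCm38 genes of Ensembl release 90, ignoring strand, and skipped reads that map to several places or several genes. STAR 2.4.1d and Subread 1.5.2 are named, per the submitters' processing notes. RNA was amplified with a SMARTer kit before Nextera XT library construction, per the labels' protocols. Multi-mapping alignments were 31.4, 27.7 and 32.3% in KLRG1-positive libraries 1, 2 and 3, against 26.3, 26.8 and 28.0% in the KLRG1-negative libraries. KLRG1-positive libraries 1 and 3, with the highest mitotic sums, thus had the highest multi-mapping shares. The part of multi-mapping in the mitotic result was not tested. Ambiguous alignments were 2.49 to 2.81% of each library. Symbols came from GENCODE release M21.

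All genes kept by filterByExpr entered 1 model in edgeR 4.0.16 under R 4.3.3 (TMM factors, robust quasi-likelihood F test, no block). P-values were two-sided, adjusted by Benjamini-Hochberg over 15197 genes and read at 0.05. Standard errors were derived from the F statistic. RPKM is CPM per kilobase of deposited exon length. Scripts were tested on simulated data. A summary of the erythroid marker list is not reported here. The members, the gene lists and the tests were chosen with earlier results of these data known. Full values were given to the 2 highest members per role by RPKM, both transcription factors, members with an unadjusted p under 0.05, and the 3 highest and 3 lowest log2 fold changes; in other lists the 2 genes with the smallest p. Other values shown were chosen after they were seen. As a pairing check, each library was centred on its sort's mean. Libraries sharing a number correlated across genes at 0.38, 0.34 and 0.19 for numbers 1, 2 and 3, and other combinations at -0.32 to 0.06. Centring lowers the other combinations, and few matchings are possible with 3 libraries per sort. The check therefore cannot establish pairing, which the labels do not state. Comparisons by numbered pair and fits with a replicate block assume it. Alternatives used DESeq2 1.42.0, other scaling, no filter, a replicate block and left-out libraries.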

Additional observations from a re-analysis of the deposited data

How the results depend on the processing

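In 17 alternatives the median log2 fold change of the members stayed positive (0.77 to 1.49). Members with a positive log2 fold change numbered 43 to 45. All 45 members kept their direction under other scaling, without the filter, without robust dispersion, in DESeq2 and with the replicate block. The exceptions came from left-out libraries: with 1 left out, Ccna2 spanned -0.44 (without KLRG1-positive library 3) to 1.03, Foxm1 -0.46 (without KLRG1-positive library 3; -0.08 without KLRG1-negative library 1) to 1.06, and Pttg1 -0.19 (without KLRG1-negative library 3) to 0.28. Pttg1 was -0.0057 in DESeq2 without KLRG1-positive library 2, Espl1 -0.080 and Anln -0.022 without both libraries numbered 1, and Ccna2 -0.072 and Pttg1 -0.11 without both numbered 3. None of these differences passed in either direction.

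Members at an unadjusted p under 0.05 numbered 5; 13 in DESeq2, 18 without the filter, 19 with the replicate block, 2 to 33 with 1 library left out (33 without KLRG1-positive library 2), and 2, 37 and 0 without both libraries numbered 1, 2 and 3. DESeq2 gave 33 with the block, against 5.05% of its genes, and 37 without KLRG1-positive library 2, against 3.09%. Members called higher were 0 in every edgeR fit, 1 in DESeq2, 13 in DESeq2 with the block and 25 in DESeq2 without KLRG1-positive library 2; none was called lower. Over all genes, 19 were higher and 184 lower, against 350 and 1609 in DESeq2, 37 and 282 without the filter, 0 and 53 with the block, 594 and 1842 in DESeq2 with the block, and 281 and 1416 in DESeq2 without KLRG1-positive library 2. Leaving out 1 library gave 0 to 5 higher and 0 to 159 lower, and leaving out both libraries numbered 1, 2 or 3 gave 3, 0 and 0 higher and 168, 0 and 0 lower. Fits without a numbered pair and the last 2 DESeq2 fits were added after seeing the data; the cause of the differences between tools was not tested. Members held 5 to 10704 counts in a library, and the part of depth in their errors was not tested.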
